A study of Mus musculus with 10 samples.

Results

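The alpha and beta crystallins measured here were Cryaa, Cryab, Cryba1, Cryba2, Cryba4, Crybb1, Crybb2 and Crybb3. They were found as the probes of the deposited table whose single gene symbol in the platform annotation is one of these names, which gave 8 probes for 8 genes, 1 probe each, of 33012 probes and 13840 named genes in all. The series compared 2 mouse RNAs on an Applied Biosystems single-colour array with chemiluminescent detection, within a study of microarray platforms. One RNA was a pool of retina from 350 adult C57/B6 mice, put on 5 arrays. That this retina is adult comes from the descriptions of the arrays and of the series. No age in days is given, and the array titles hold the letters MRP1, whose meaning is not stated. The other was a pool of cortex from 19 mice at postnatal day 1, put on 5 arrays, whose strain is given as C57/B6 in the sample labels and as Swiss-Webster in the series text. No genotype or treatment is named for either pool. Tissue as described went with age, and may have gone with strain, and these cannot be told apart. All 5 arrays of a tissue repeat 1 pool, so every p-value below measures the spread between arrays and not between animals.

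Crystallins are the abundant soluble proteins of the eye lens. The alpha crystallins belong to the small heat shock proteins, ATP-independent chaperones that hold unfolding proteins in solution, whereas the beta crystallins, together with the gamma crystallins, share a fold of Greek key motifs and act mainly as long-lived structural proteins that give the lens its refractive index. Transcripts of both families have also been found outside the lens, among other places in the neural retina, and alpha B crystallin is made in many tissues, including glia, heart and muscle.

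All 8 crystallin transcripts were higher in adult retina than in newborn cortex, by 4.62-fold for Crybb1 to 105-fold for Cryaa and Cryba1. In each of the 8, the lowest of the 5 retina arrays lay above the highest of the 5 cortex arrays. The median difference of the 8 was 4.12 on the log2 scale, against -0.01 over all probes. Across the array, 12.1% of probes were called higher in retina (limma, Benjamini-Hochberg adjusted p under 0.05 over all probes and at least 2-fold), 13.3% were called lower, and 19.2% had all 5 retina arrays above all 5 cortex arrays. In retina, all 8 probes stood above a yardstick for dim signal, the 95th percentile of 747 probes named for olfactory receptors, which lay at 10.74 log2 units. In cortex, Cryab stood above it on all 5 arrays and the other 7 stood below it on all 5, so for these 7 the cortex signal was not shown to lie above background and the size of the difference rests in part on dim values. Intensities below are log2 values after quantile normalization unless they are called deposited. Because this is bulk RNA, fewer cells of a type and less RNA per cell cannot be told apart.

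**Figure D1:**
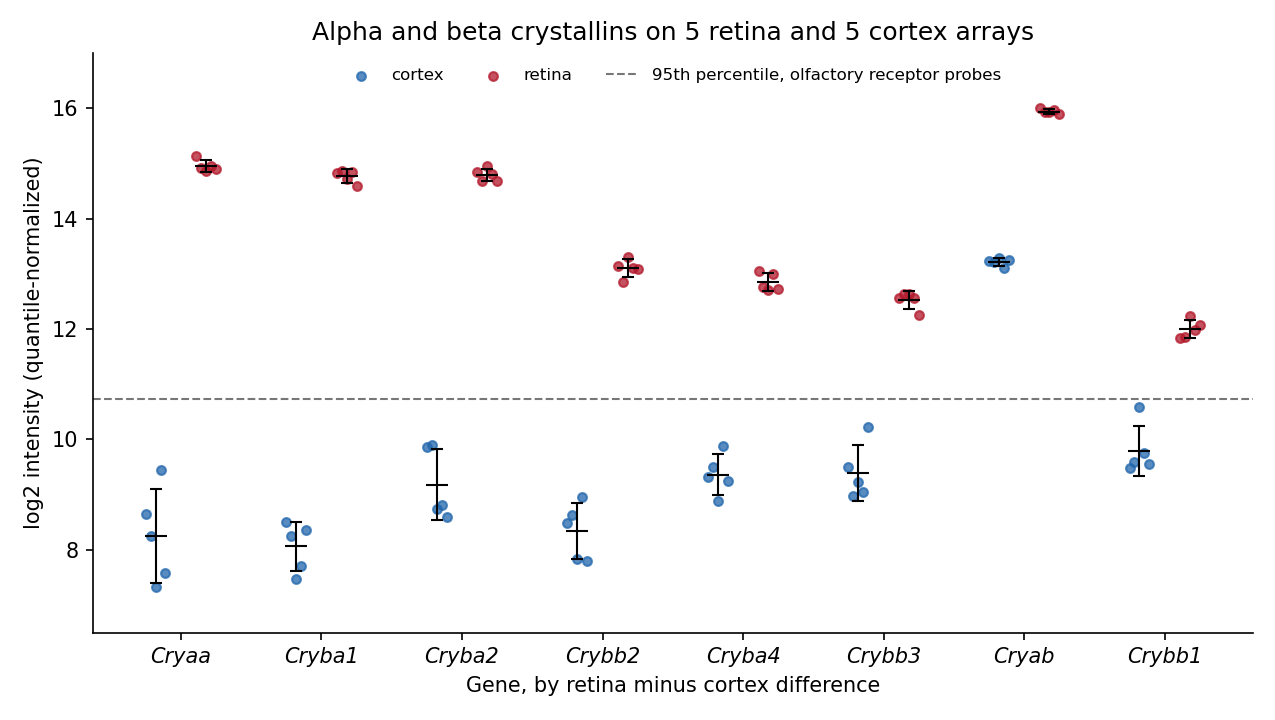
Log2 intensity (quantile-normalized) of the 8 crystallin probes on each of 5 cortex arrays (blue) and 5 retina arrays (red), with mean and SD as black bars. The dashed line at 10.74 is the olfactory receptor yardstick. Retina points lie above cortex points for every gene, and Cryab alone has cortex points above the line, at a mean of 13.22.

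The first alpha crystallin gene, Cryaa (probe 428263), encodes the alpha subunit that is largely restricted to the lens. Its deposited intensities were 28286, 26857, 26043, 30529 and 27826 on retina arrays 1 to 5 and 476, 337, 193, 800 and 209 on cortex arrays 1 to 5. After normalization these were 15.14, 14.92, 14.87, 14.96 and 14.89 in retina and 8.64, 8.25, 7.32, 9.45 and 7.58 in cortex. The retina values agreed closely, while those of cortex were scattered over the dim range. The means were 14.96 ± 0.11 and 8.25 ± 0.85 (SD, n = 5), a difference of 6.71 (SE 0.291, limma adjusted p = 3.11e-12).

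Cryab (probe 913499) encodes the more widely made alpha B subunit and was the crystallin with a clear signal in both tissues. Its deposited intensities were 51352, 53813, 54380, 60824 and 55661 in retina and 11130, 10739, 11658, 9690 and 11356 in cortex. On the normalized scale the retina arrays read 16.00, 15.93, 15.93, 15.96 and 15.90, and the cortex arrays 13.24, 13.22, 13.28, 13.10 and 13.25. No array stood apart in either tissue. The means were 15.94 ± 0.04 and 13.22 ± 0.07 (SD, n = 5), a difference of 2.73 or 6.62-fold (SE 0.0478, limma adjusted p = 2.93e-17). Since the cortex signal lay 2.48 log2 units above the olfactory receptor percentile, this fold change does not rest on dim values.

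Among the acidic beta crystallin genes, Cryba1 (probe 928199) had a measured difference as large as that of Cryaa. It is known, besides its lens role, from astrocytes and the retinal pigment epithelium, where its protein takes part in lysosomal clearance. Retina arrays read 14.82, 14.87, 14.72, 14.85 and 14.59, and cortex arrays 8.51, 8.25, 7.47, 7.71 and 8.35. The means of 14.77 ± 0.12 and 8.06 ± 0.45 (SD, n = 5) differed by 6.71 (SE 0.18, limma adjusted p = 5.64e-15), with less scatter in cortex than Cryaa.

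Cryba2 (probe 598055), a second acidic beta subunit, was at 14.84, 14.68, 14.95, 14.81 and 14.68 in retina and at 9.86, 9.90, 8.73, 8.82 and 8.60 in cortex. Cortex arrays 1 and 2 read about 1 log2 unit above the other 3, all within the dim range. The difference was 5.61 or 48.8-fold (SE 0.223, limma adjusted p = 1.01e-12). Cryba4 (probe 480260), the third acidic subunit, was at 13.05, 12.76, 12.71, 13.00 and 12.72 in retina and at 9.31, 9.50, 8.88, 9.88 and 9.25 in cortex. Here too each retina array exceeded each cortex array, and the difference was 3.49 or 11.2-fold (SE 0.175, limma adjusted p = 2.19e-11).

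Of the 3 basic beta crystallin genes, Crybb2 (probe 697131) encodes a major beta crystallin of the mature lens that has also been described in retinal neurons. Its retina arrays read 13.15, 12.85, 13.30, 13.11 and 13.09, and its cortex arrays 8.49, 8.63, 7.83, 8.95 and 7.79. The difference was 4.76 or 27.1-fold (SE 0.223, limma adjusted p = 8.97e-12). Retina array 2 was the lowest of its tissue and still lay more than 3 log2 units above every cortex array.

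Crybb3 (probe 354201) was at 12.56, 12.64, 12.63, 12.56 and 12.25 in retina and at 9.50, 8.98, 9.22, 9.04 and 10.23 in cortex. Retina array 5 was lower than the other 4, and cortex array 5 higher than the other 4. The difference was 3.13 or 8.77-fold (SE 0.213, limma adjusted p = 1.27e-09). Crybb1 (probe 911316), which encodes the beta crystallin with a long N-terminal extension, was at 11.84, 11.86, 12.24, 11.98 and 12.08 in retina and at 9.49, 9.59, 10.58, 9.76 and 9.55 in cortex. Its difference was 2.21 or 4.62-fold (SE 0.202, limma adjusted p = 5.92e-08), again from a dim cortex value, and cortex array 3 came nearest to the retina values.

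The deposited values without normalization gave the same directions. The differences of mean log2 deposited intensity were 6.33 for Cryba1, 6.32 for Cryaa, 5.19 for Cryba2 and 4.38 for Crybb2. They were 3.03 for Cryba4, 2.68 for Crybb3, 2.34 for Cryab and 1.73 for Crybb1. Each had an exact 2-sided permutation p of 0.00794, which is the lowest value possible with 252 ways to assign the arrays. Retina arrays were dimmer as a whole, with median deposited intensities of 836 to 987 against 1255 to 1341 in cortex, and the median of all probes without normalization was -0.41.

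Ranked among the differences of all 33012 probes, from the most retina-biased down, Cryba1 and Cryaa were at places 95 and 96, Cryba2 at 147 and Crybb2 at 230. Cryba4, Crybb3, Cryab and Crybb1 followed at 491, 633, 855 and 1270. The last of these, Crybb1, was within the top 3.85% of probes. For the 7 genes other than Cryab the place rests on a dim cortex value, and with it on how bright the probe was in retina, so the places describe the measured differences and not an order of true fold changes. The 2 alpha crystallins stood at 6.71 and 2.73, and the 6 beta crystallins ran from 2.21 to 6.71 with a median of 4.12.

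**Figure D2:**
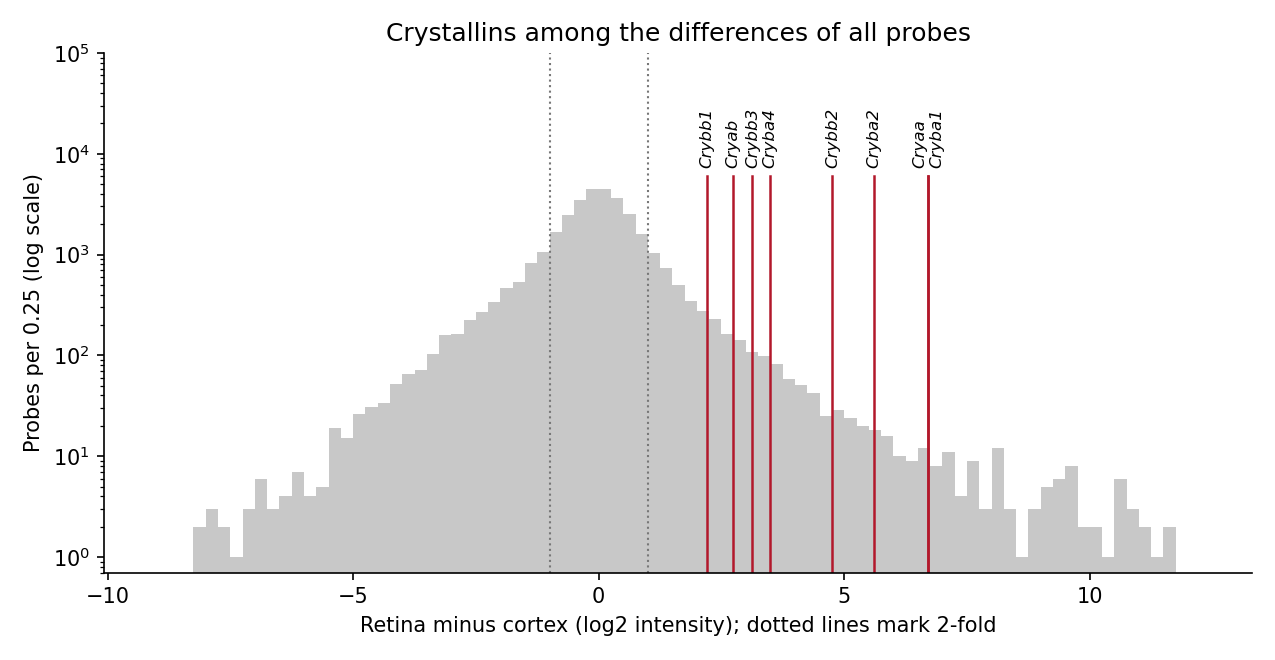
Number of probes (log axis) by retina minus cortex difference in log2 intensity, in steps of 0.25, for all 33012 probes, with the 8 crystallins as red lines and dotted lines at 2-fold. All 8 lie on the retina side, from 2.21 to 6.71, beyond the dotted line.

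How far the crystallins differed from each other was read within arrays, by taking the difference of 2 probes on each array and comparing its 5 retina values with its 5 cortex values, which sets no probe's level against another's. No p-value was attached. Of the 28 pairs, 21 had non-overlapping sets of 5. No such count was made for pairs of other probes, so this share is not read as particular to the crystallins. Cryba1 and Cryaa differed by 0.00 in their retina excess (SE 0.42), and the excess of Cryaa over Cryba2 of 1.10 (SE 0.41) also overlapped between tissues. The steps from Cryba2 down to Crybb2 (0.85, SE 0.268) and from Crybb2 down to Cryba4 (1.28, SE 0.153) did not overlap. Below that, Cryba4, Crybb3 and Cryab overlapped in all their pairs, as did Crybb3 and Cryab with Crybb1, while Cryba4 and Crybb1 were separate. Cryba1 and Cryba2 were separate, although each overlapped with Cryaa. Cryab is the only one of the 8 whose cortex value is not dim, so every step above, among the upper genes and among the lower ones, depends on dim signal on at least 1 side.

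Repeat arrays of a tissue differed little in crystallin signal in retina and more in cortex. The SD over the 5 retina arrays lay between 0.04 and 0.17 and that over the 5 cortex arrays between 0.07 and 0.85, and it was larger in cortex for all 8. Each spread was set beside that of the 1000 probes nearest in mean intensity in the same tissue. For Cryab in retina the SD of 0.0383 was below that of nearly all like probes, of which 1.5% had a smaller SD and whose median was 0.101. For Cryaa in cortex the SD of 0.852 was on the high side, with 85.3% of like probes smaller and a median of 0.529. The other 14 gene and tissue combinations had between 18.8% and 78.5% of like probes below them.

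Each of the 8 kept its call with any 1 array left out. Measured against the mean of its 4 companion arrays, an array deviated by values that ran from -0.35 to 0.30 in retina and from -1.16 to 1.5 in cortex. Retina array 1 was above the mean of its 4 companions for 7 of the 8 crystallins and retina array 5 for 1 of the 8, but the median deviations were only 0.06 and -0.12. In cortex, array 3 had the lowest median deviation, -0.58, yet it was the highest of its tissue for Crybb1 and Cryab. With any 1 array left out, the differences ranged from 6.48 to 7.01 for Cryaa and from 2.14 to 2.41 for Crybb1.

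**Figure D3:**
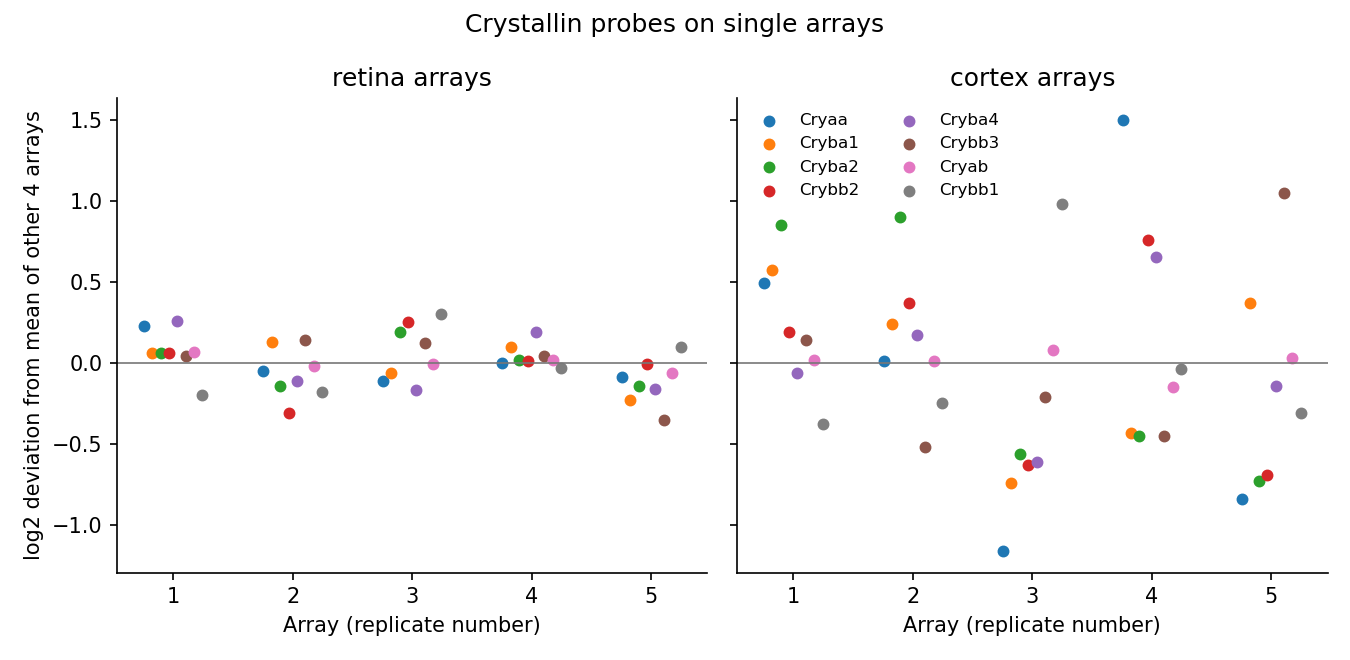
Deviation in log2 intensity of each crystallin probe on each array from the mean of its 4 companion arrays, for retina (left) and cortex (right), with 1 colour per gene. Retina points stay between -0.35 and 0.30, and cortex points spread from -1.16 to 1.5.

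The bases before the transcription start are shown for the 4 crystallin genes in which the 7-base site TGCTGAC was found. Large Maf transcription factors, known activators of crystallin genes in the lens, bind elements built on this site. Promoter sequence was at hand for 7 of the 8 genes, all but Cryab, and comes from RefSeq on GRCm38.p6. Each run gives the 250 bases up to the annotated start, 5′ to 3′ on the gene's strand, with TGCTGAC and the TATA box letters TATAAA in capitals. They lie at chr17:31677681-31677930 on the plus strand for Cryaa, chr11:77725294-77725543 on the minus strand for Cryba1, chr5:112252519-112252768 on the minus strand for Cryba4 and chr5:112255570-112255819 on the plus strand for Crybb1.
Cryaa: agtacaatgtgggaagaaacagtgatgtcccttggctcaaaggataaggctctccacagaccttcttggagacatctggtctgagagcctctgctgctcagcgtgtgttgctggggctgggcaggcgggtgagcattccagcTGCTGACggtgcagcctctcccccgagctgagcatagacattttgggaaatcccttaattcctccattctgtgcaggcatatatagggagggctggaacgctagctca
Cryba1: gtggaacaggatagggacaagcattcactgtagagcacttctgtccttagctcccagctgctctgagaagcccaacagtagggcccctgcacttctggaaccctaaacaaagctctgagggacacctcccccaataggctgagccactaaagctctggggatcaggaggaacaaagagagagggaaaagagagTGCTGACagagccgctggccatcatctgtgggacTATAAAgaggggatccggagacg
Cryba4: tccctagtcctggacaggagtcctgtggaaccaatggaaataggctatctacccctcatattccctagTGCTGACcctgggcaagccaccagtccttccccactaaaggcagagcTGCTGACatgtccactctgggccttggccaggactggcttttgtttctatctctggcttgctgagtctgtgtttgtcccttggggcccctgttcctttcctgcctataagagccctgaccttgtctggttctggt
Crybb1: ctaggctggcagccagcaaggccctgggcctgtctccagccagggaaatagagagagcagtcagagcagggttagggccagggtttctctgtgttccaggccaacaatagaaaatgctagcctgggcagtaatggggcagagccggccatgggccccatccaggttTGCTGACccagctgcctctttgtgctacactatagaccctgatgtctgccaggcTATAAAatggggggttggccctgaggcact

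On either strand, TGCTGAC occurred in 4 of the 7 crystallin windows and in 3.81% of the 32851 windows of the same length in the table. All 5 occurrences read in the direction of the gene. Its first base lay 108 bases before the start in Cryaa, 57 in Cryba1, 84 in Crybb1, and 182 and 135 in Cryba4. TATAAA was present in Cryba1 and Crybb1, 2 of 7, against 12.4% of all windows. A heat shock element, searched on both strands as 3 units of GAA and TTC in alternation with 2 bases between units, matched in 0 of the 7 and in 0.466% of all windows. The 4 genes with the 7-base site include both ends of the measured differences, Cryba1 at 6.71 and Crybb1 at 2.21. The 3 genes without these letters, Cryba2, Crybb2 and Crybb3, had differences of 5.61, 4.76 and 3.13. A match describes the letters only and shows no binding.

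The 8 genes lie on 5 chromosomes. In the RefSeq gene table, in which all 8 were matched by Entrez ID, Cryba4 and Crybb1 stand next to each other on chromosome 5, as do Crybb2 and Crybb3 on the same chromosome, while Cryba2 is on chromosome 1, Cryab on 9, Cryba1 on 11 and Cryaa on 17. Within both adjacent pairs both genes were higher in retina, by 3.49 and 2.21 for Cryba4 and Crybb1 and by 4.76 and 3.13 for Crybb2 and Crybb3. Cryba4 and Crybb1 are on opposite strands, as the windows printed above show, and the position of the probes within each gene is not given.

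The nearest measured genes on either side that are not crystallins had differences below those of all 8 crystallins. There were 12 of them, of which 0 were called higher and 1 lower, with a median difference of -0.06 and a range from -1.02 to 0.56 (limma). Over all probes the shares called were 12.1% higher and 13.3% lower, so these counts are not read as particular to the flanking genes. At an unadjusted p under 0.05, 1 was higher and 4 were lower. Their adjusted p also lay under 0.05, from 3.83e-08 for Pitpnb to 0.0472 for U2af1 (limma). Apart from Sik1, they missed a call only through the 2-fold minimum. Asphd2, beside Crybb2, was among the lower ones at -0.74 (SE 0.07), with 13.11 in retina and 13.85 in cortex. Hspb2, a small heat shock gene beside Cryab, averaged 8.77 ± 1.00 over the 5 retina arrays and 9.04 ± 0.32 over the 5 cortex arrays (SD). U2af1, a splicing factor gene beside Cryaa, was at 17.39 ± 0.09 and 17.53 ± 0.06. Pitpnb, a phosphatidylinositol transfer protein gene beside Cryba4, was at 15.89 ± 0.08 and 15.33 ± 0.07, under the 2-fold minimum. The called one, Sik1 beside Cryaa (-1.02, SE 0.30), was dim in both tissues, as were 8 of the 12, and was not called with array median centring, cyclic loess or an offset before the log, among other settings, whereas without normalization 3 of the 12 were called lower.

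**Figure D4:**
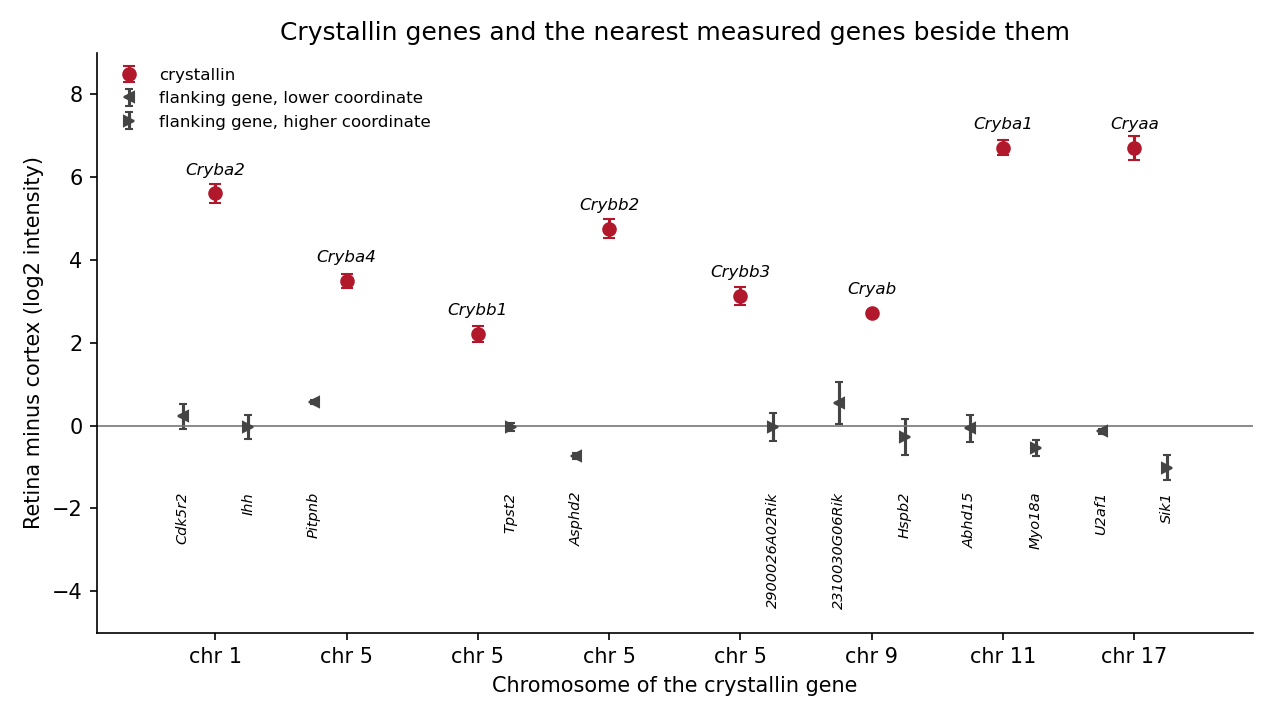
Retina minus cortex difference in log2 intensity (with SE) for the 8 crystallin genes (red circles), grouped by chromosome, and for the nearest measured genes on each side that are not crystallins (grey triangles). The crystallins lie at 2.21 to 6.71 and the 12 flanking genes at -1.02 to 0.56.

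Of 12 other crystallin and taxon-related crystallin genes, 11 were measured, of which 7 were higher in retina and 4 had no call, the median difference being 1.49. Over all probes, 12.1% were called higher in retina. Without normalization Cryz (0.82) and Cryga (1.02, limma adjusted p = 0.0782) were not called, and Cryga was dim in both tissues, at 9.68 and 8.2. Cryga was also not called against a 1.5-fold difference (limma adjusted p = 0.139). Crygs, at 6.48 (SE 0.13), was near the measured differences of Cryaa and Cryba1. Crygb (5.59), Crygc (4.38), Crygd (2.99, and 4.07 on its other probe) and Crygf (2.34) were higher too. Crygs, Crygb and Crygc were dim in cortex, as was the other probe of Crygd, at 8.07. Crym, an enzyme-like crystallin of other animals, was bright in both tissues at 17.33 and 17.10. The differences of Crygn (0.36), Cryzl1 (0.3) and Cryl1 (-0.57) were not called either. Crybg3, which shares the beta gamma fold without being a lens crystallin, was higher by 1.65 (SE 0.15).

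Lens fibre genes other than crystallins were mostly dim. Of 13 genes for fibre membrane and structure proteins, 7 were measured, with 2 higher in retina, 1 lower and 4 without a call. Among all probes, 12.1% were called higher and 13.3% lower, so these counts are not read as particular to the list. The median difference was 0.24. Mip, the water channel of fibre cells, averaged 8.97 ± 1.15 over the 5 retina arrays and 8.94 ± 0.46 over the 5 cortex arrays (SD). The fibre connexin gene Gja3 was at 8.03 and 7.75, the beaded filament gene Bfsp1 at 9.74 and 10.31, and Dnase2b, the nuclease that clears fibre nuclei, at 7.74 and 7.50. The 2 that were higher were Tdrd7, an RNA granule gene bright in both tissues at 18.36 and 14.42, and Lgsn, a lens protein related to glutamine synthetase, at 10.50 and 8.05. Fabp5, a fatty acid binding protein gene not specific to lens, was lower in retina (-3.86, SE 0.11).

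The retina arrays carried the transcripts of retinal cells. All 3 measured rod markers (Pdc, Gnat1, Nrl), all 5 Müller glia markers and all 4 ganglion cell markers were higher in retina, and the cortex markers Tbr1, Neurod6 and Dlx1 were lower. Among all probes, 12.1% were called higher and 13.3% lower. Markers of tissues beside the neural retina were uneven. Of 7 pigment epithelium markers, 5 were higher, among them Rpe65 at 14.58 and Rgr at 15.58 in retina. Pmel, also among the 5, lay below the olfactory receptor percentile in both tissues, at 10.48 and 8.34. Best1 and Tyr were dim in both tissues and not called. Summed over the 7 pigment epithelium markers, the deposited intensity lay between 81592 and 92649 on the retina arrays and between 1969 and 3701 on those of cortex. All 5 measured lens fibre markers lay below the olfactory receptor percentile in both tissues, Lgsn included, and their sum lay between 2614 and 3689 on the retina arrays and between 2333 and 3891 on those of cortex. Of 5 markers of cornea, iris and ciliary body, 1 was called higher, Krt12 at 10.38 and 8.66, again below that percentile in both tissues, and the sums were 4630 to 6495 and 4302 to 5599. Of 4 lens epithelium markers, Gja1 and Cdh1 were lower in retina and Foxe3 and Pitx3 were not called. Cdh1, at 8.83 and 10.61, and Foxe3 lay below the olfactory receptor percentile in both tissues. The sums of the 4 were 2876 to 3897 in retina and 13692 to 16545 in cortex. The part of pigment epithelium or other tissue beside the neural retina in the crystallin signal was not tested.

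Alpha crystallins are relatives of the other small heat shock proteins, which moved in both directions. Of 8 listed genes, 5 were measured, with 1 higher, 1 lower and 3 not called, and a median of -0.21. With 12.1% of all probes called higher and 13.3% lower, these counts are not read as particular to the family. Hspb6 was higher in retina, at 16.52 ± 0.06 against 12.00 ± 0.05 (SD, n = 5), a difference of 4.52 (SE 0.05, limma adjusted p = 2.16e-19). Hspb3, known from muscle and motor neurons, was lower, at 9.79 ± 0.55 against 13.26 ± 0.07. Hspb8 was at 12.44 and 11.49, a difference of 0.95 (SE 0.10) just under the 2-fold minimum, which passed it with array median centring (1.06) and cyclic loess (1.01). Hspb2 and Hspb7 were dim in both tissues.

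Heat shock factors and the chaperones that work with small heat shock proteins went both ways. Of 11 listed genes, 5 were measured, with 2 higher, 2 lower and 1 not called, and a median of 0.51. The shares over all probes were 12.1% higher and 13.3% lower, and so few genes are not read against them. Bag3, the co-chaperone that links small heat shock proteins to larger chaperones, was higher by 1.24 (SE 0.20), and Hsf4, the heat shock factor of the lens, by 1.37 (SE 0.34), the latter from dim values of 9.68 and 8.31. Without normalization neither reached 2-fold, at 0.73 and 0.89. Hsf4 was also not called against a 1.5-fold difference (limma adjusted p = 0.0698). Hsph1, which encodes a large heat shock protein, was lower in retina (-1.25, SE 0.088), as was Hsf2 (-1.19, SE 0.21).

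Of 20 transcription factor genes known to regulate crystallin genes or their co-activators, 14 were measured, with 6 higher in retina, 1 lower and 7 not called, and a median of 0.32. The shares over all probes were 12.1% called higher and 13.3% called lower. Pax6, the eye field factor that acts on many crystallin promoters, averaged 16.30 ± 0.15 in retina against 11.97 ± 0.19 in cortex (SD over 5 arrays each), which is higher by 4.33 (SE 0.09, limma adjusted p = 2.23e-16). Mafa, the large Maf gene on the list that was measured, was at 11.55 ± 0.24 and 8.46 ± 0.88, with cortex in the dim range. Meis1 (2.99, SE 0.061), Six3 (2.10, SE 0.11) and Prox1 (1.91, SE 0.076), homeobox genes of lens and retina, were higher too, and Hsf4 was the sixth. Among the small Maf genes, Mafg was at 16.42 and 16.39 on 1 probe and at 15.05 and 15.40 on the other, and Mafk at 9.85 and 10.38. Sox3 was lower (-1.34, SE 0.15), and Sox2, at -0.87 (SE 0.066), was called lower only without normalization or against a 1.5-fold difference. Foxe3, a factor of lens epithelium, was dim in both tissues at 8.80 and 8.18.

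**Figure D5:**
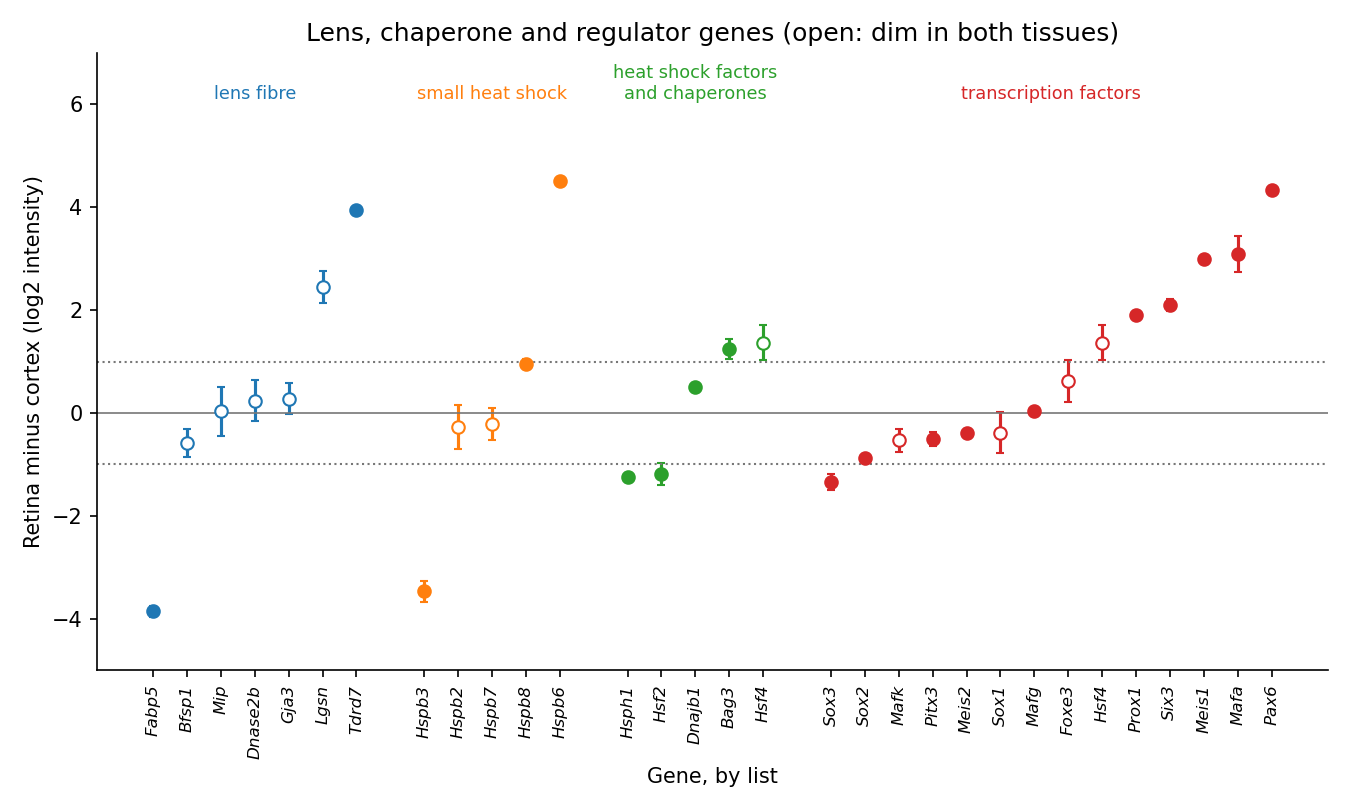
Retina minus cortex difference in log2 intensity (with SE) for lens fibre genes, small heat shock genes, heat shock factors with partner chaperones, and transcription factors that regulate crystallin genes. Open points lie below the olfactory receptor percentile in both tissues, and dotted lines mark 2-fold. Differences run from -3.86 for Fabp5 to 4.52 for Hspb6, in both directions within each list.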

How the data were processed

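Each of 10 arrays was hybridised with digoxigenin-labelled cRNA made from 1 pool of total RNA, per the labels' protocols. The authors deposited linear intensity values, all positive (0 values at or below 0). Their background correction, normalization and detection calls are not given in the sources used here. Groups and replicate numbers came from sample titles. Values were put on the log2 scale and, because array medians spanned 0.682, quantile-normalized. The tissues were then compared by limma 3.58.1 under R 4.3.3 (intensity trend, no covariates, 2-sided, Benjamini-Hochberg over 33012 probes, adjusted p under 0.05 and at least 2-fold), after the fit had been tested on simulated data. Differences are retina minus cortex, with limma's SE. Probes were named from the platform annotation, in which 14411 had 1 symbol and 247 several. For lists, the brightest probe stood for a gene. Every crystallin was named, with listed genes, chromosomal neighbours and the 5 most similar profiles. The crystallins and lists were chosen with earlier results of these data known, as was the yardstick of probes named Olfr. Permutation tests used scipy 1.17.1. The alternatives were other scalings, an offset of 100, a filter on dim probes, no trend, thresholds of 1.5-fold and 4-fold, the replicate number as a block, and each array left out. The number of arrays limits the precision.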

Additional observations from a re-analysis of the deposited data

Results flagged for a closer look

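For the 8 crystallins in both tissues, 16 sets of 5 arrays were searched for an array standing far from the others, and 2 sets held one, where chance gives about 1 in 20. Crybb3 on retina array 5 was at 12.25, below the other 4 at 12.56 to 12.64. Its difference was 3.13 with that array and 3.20 without it. Crybb1 on cortex array 3 was at 10.58, above the other 4 at 9.49 to 9.76 and nearest of the dim cortex values to the olfactory receptor percentile. Its difference was 2.21 with that array and 2.41 without it.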

How the results depend on the processing

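Under 19 alternatives (9 changes of scaling, filter, model or threshold, and 10 with 1 array left out), all 8 crystallins stayed called higher in retina, and the largest adjusted p of any crystallin under any of them was 7.46e-06 (limma). The filter on dim probes kept a probe that was bright in either tissue. All 8 passed it on their retina values, so it does not test the dim cortex values of 7 crystallins. The lowest differences came without normalization or with the offset, at 6.24 for Cryba1, 6.27 for Cryaa and 1.73 for Crybb1. Over all probes, 8379 were called. The 4-fold minimum called 3118, because it is stricter by construction, and the crystallins stood against 4.56% of probes called higher there. Without normalization 2474 probes were called higher and 7621 lower, against 3987 and 4392, so the balance of calls over the array rests on the scaling. Of the listed genes without a call, Sox2 (-1.25), Bfsp1 (-1.11), Mafk (-1.07) and Pitx3 (-1.0) were called lower without normalization, where the median of all probes was -0.41. Leaving out 1 array gave 8280 to 8476 calls. The deposited-scale permutation test passed for all 8 with any array left out. This was fixed in advance, because the retina and cortex values of each crystallin do not overlap. The replicate number as a block (replicate block) gave 8398 calls and the same 8 crystallins. Arrays of the same number hardly deviated together (correlations from -0.0202 to 0.0288, 0 of 5 over 0.1, and 3 of 5 retina arrays correlated best with their own number). Whether arrays of 1 number were run together cannot be told from this. Averaging the probes of a gene changes nothing for genes with 1 probe each and was not run. The cortex values of 7 crystallins were not shown to lie above background, which limits the size of their differences, and for all 8 the arrays of a tissue repeat 1 pool.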

Other observations

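The probes whose profile over the 10 arrays was most like the mean centred profile of the 8 crystallins were those of Farp2, Hdac5, Otx2, Aipl1 and Sh3bgrl2, with Pearson correlations of 0.9993 to 0.999. Otx2, a homeobox gene of photoreceptor and bipolar cell fate, was higher in retina by 5.20 (SE 0.081), and Aipl1, a photoreceptor chaperone gene, by 10.02 (SE 0.12). Farp2, Sh3bgrl2 and Hdac5 were higher by 3.32, 4.39 and 1.22. These correlations are a description over 10 arrays that share 2 RNA pools and are set by the contrast of the tissues, since 692 of 14403 other named probes (4.8%) had a correlation above 0.99. Among 12 promoter windows of the other crystallin genes, TGCTGAC occurred in 1.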
